A study of Mus musculus with 9 samples.

Results

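The 9 genes described here carry TGF-beta signalling from ligand to target: the ligands Tgfb1, Tgfb2 and Tgfb3, the latent binding protein gene Ltbp1, the receptors Tgfbr1 and Tgfbr2, the inhibitor Smad7, and the target genes Ccn2 and Ccn1. They were taken by gene symbol from a table of 22544 genes and assembled loci, in which all 9 were found. All 9 were among the 13338 genes that reached 1 FPKM in at least 3 of the 9 libraries and were tested. FPKM counts fragments relative to transcript length and to the size of the library, so that different genes can be set side by side.

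The libraries hold polyadenylated RNA of mouse ovary, 3 each from groups labelled NC, CTX and HBOT. CTX stands for cyclophosphamide, which alkylates DNA, is used against cancer and damages follicles. The HBOT libraries are labelled only with hyperbaric oxygen, and the series' design text describes this group as cyclophosphamide combined with it. The NC labels name no treatment, and that group served as the reference. The sources used here do not give strain, age, dose or schedule. Whether each library is a different animal is not in the labels either, so a p-value measures the spread between libraries, which may be technical. The ovary is a mixed tissue, and in bulk RNA fewer cells of a type and less RNA per cell cannot be told apart.

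TGF-beta ligands are secreted as inactive precursors that stay bound to their own propeptide, and LTBP1 ties this latent complex to the matrix until integrins, proteases or thrombospondin release it. The freed ligand binds the type II receptor TGFBR2, which activates the type I receptor TGFBR1, and TGFBR1 phosphorylates SMAD2 and SMAD3. SMAD7 is induced by the pathway and inhibits it. CCN2 and CCN1, once named CTGF and CYR61, are secreted matricellular proteins that are induced by TGF-beta, by the mechanosensitive coactivators YAP and TAZ and, CCN1 above all, by growth factors within minutes. In the ovary these ligands act on granulosa, theca and stromal cells, and the pathway is best known for the deposition of matrix.

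Promoters are shown for Tgfb1 and Ccn1, the members with the lowest CTX mean relative to NC, and for Tgfb2, a ligand gene whose groups overlapped in that comparison. Each is the 250 bases before the annotated start, read 5′ to 3′ on the gene's strand, from RefSeq on GRCm38.p6, an older build than the GRCm39 used for the expression values. Tgfb1 lies at chr7:25686752-25687001 on the plus strand, Tgfb2 at chr1:186705990-186706239 on the minus strand, and Ccn1 at chr3:145649986-145650235 on the minus strand. Capitals mark the matches to 7 motifs.
Tgfb1: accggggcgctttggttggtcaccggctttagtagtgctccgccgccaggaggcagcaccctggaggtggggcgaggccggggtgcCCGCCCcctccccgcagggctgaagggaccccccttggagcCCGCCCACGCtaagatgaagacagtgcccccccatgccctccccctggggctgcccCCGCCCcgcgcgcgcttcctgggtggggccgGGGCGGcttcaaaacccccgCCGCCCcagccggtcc
Tgfb2: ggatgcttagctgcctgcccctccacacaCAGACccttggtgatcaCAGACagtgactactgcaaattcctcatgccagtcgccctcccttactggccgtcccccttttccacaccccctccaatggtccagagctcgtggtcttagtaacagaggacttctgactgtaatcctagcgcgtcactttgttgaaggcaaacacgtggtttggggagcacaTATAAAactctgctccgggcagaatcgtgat
Ccn1: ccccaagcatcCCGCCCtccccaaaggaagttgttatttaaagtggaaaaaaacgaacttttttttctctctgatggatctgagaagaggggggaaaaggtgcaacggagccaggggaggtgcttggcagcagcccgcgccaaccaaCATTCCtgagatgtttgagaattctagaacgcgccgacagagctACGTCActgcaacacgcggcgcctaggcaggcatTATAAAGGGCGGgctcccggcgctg
The motifs, searched on both strands, were CAGAC for SMAD proteins, TGANTCA for AP-1, CATTCC for the TEAD partners of YAP and TAZ, GGGCGG for SP1 and KLF factors, TGACGT for CREB, the TATA box TATAAA, and GCGNGGGCG for EGR factors.

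The promoters differ in composition. The Tgfb1 window is 75.2% G and C, held 5 GGGCGG matches, 1 of which overlaps its EGR match, and had 0 TATAAA. The Tgfb2 window is 53.6% G and C and held a TATAAA that starts 31 bases before the start site and 2 CAGAC matches. The Ccn1 window is 54.8% G and C, with a TATAAA 25 bases before the start, a CATTCC at 103 bases, a TGACGT at 59 bases and 2 GGGCGG matches, of which the nearer directly follows the TATAAA. Among 32851 promoter windows of the same length, 32.7% held GGGCGG, 42.2% CAGAC, 12.4% TATAAA, 12.6% CATTCC, 6.47% TGACGT, 4.7% the EGR motif and 6.75% TGANTCA. A match is a run of letters, not evidence of binding. Promoters were obtained for 6 of the 9 members, and not for Tgfb3, Smad7 and Ccn2. The selection of member promoters left out the chromosome that carries Smad7.

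The summed FPKM of a library ranged from 394046 to 420058, and read depth is unknown because FPKM keeps no counts. HBOT replicate 2 stood apart from the others: 1637 genes differed by over 1 log2 unit from the remaining 8 libraries on average, against 173 to 347 genes in each of those, with 347 in CTX replicate 1. A list of 10 ovulatory response genes summed to 957 FPKM in HBOT replicate 2 and to between 19.3 and 71 FPKM in the other 8. Oocyte markers summed to 102 to 271 FPKM and granulosa markers to 1260 to 2300 FPKM, and all 6 genes of each list reached 1 FPKM. Of 5 oviduct markers, 4 stayed under 1 FPKM in every library.

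Tgfb1 (ENSMUSG00000002603) was the member that differed most clearly between the groups. It was at 23.2, 28 and 29.1 FPKM in the 3 NC libraries, at 13.1, 15.7 and 15.3 FPKM in CTX, and at 30.6, 37.2 and 28.9 FPKM in HBOT, each in the order of replicates 1 to 3. All CTX libraries lay below all NC and all HBOT libraries, and the NC and HBOT libraries overlapped. The CTX mean was 14.7 ± 1.42 FPKM (SD, n = 3) against 26.8 ± 3.13 FPKM in NC, a ratio of 0.549. On the log2(FPKM + 1) scale used for all differences this is -0.82 (SE 0.14, adjusted p = 0.206 by limma over all 13338 genes). The HBOT mean was 32.2 ± 4.42 FPKM, 2.19 times the CTX mean (log2 difference 1.08, SE 0.14, adjusted p = 0.219 by limma). Neither difference passed an adjusted p of 0.05. Both comparisons share the CTX libraries, so the low CTX values enter each of them.

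**Figure D1:**
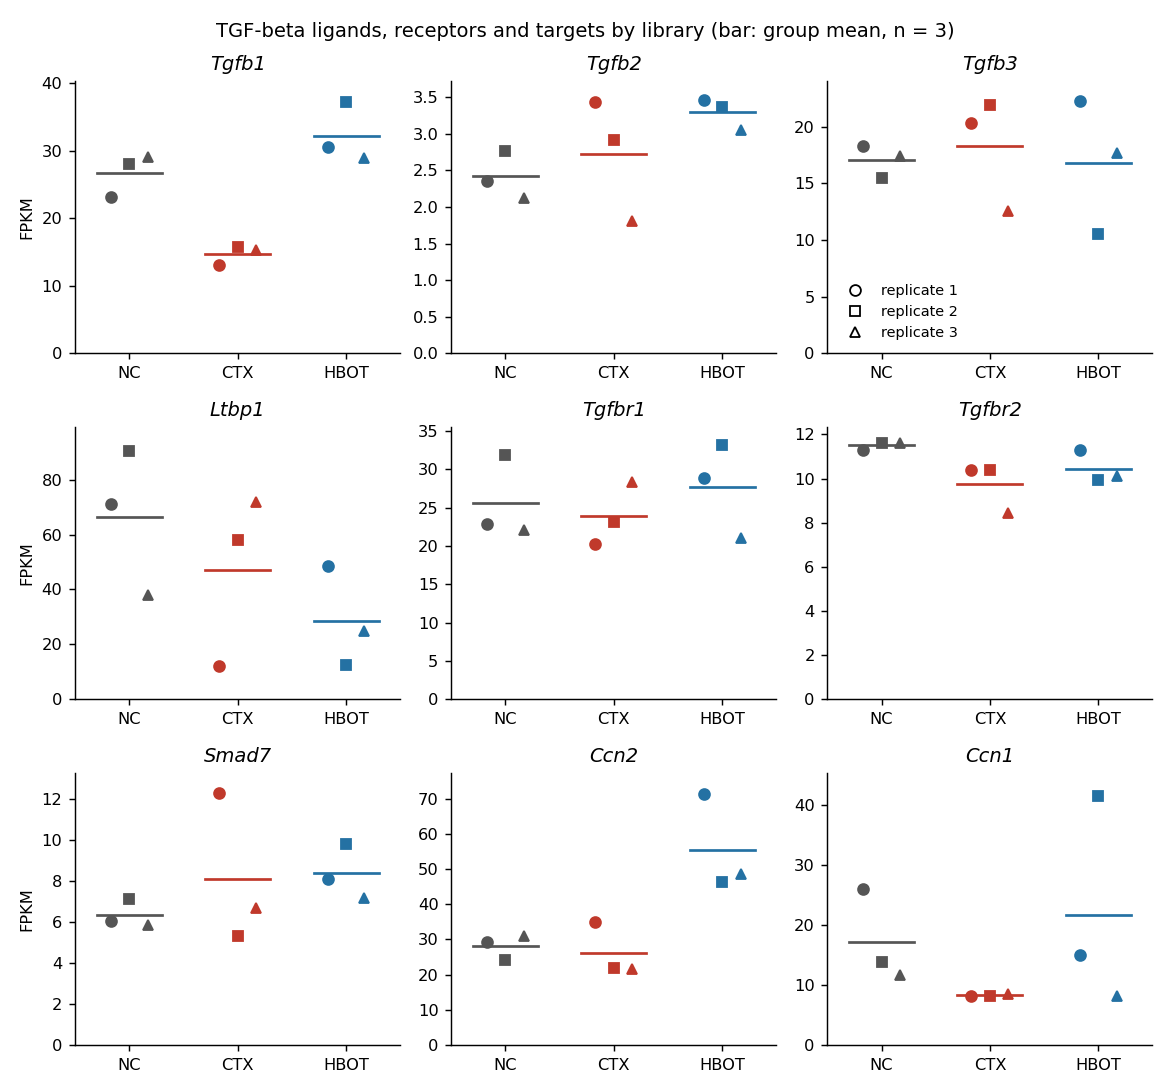
FPKM of the 9 genes in each library, by group, with a bar at the group mean and a symbol for the replicate number. Tgfb1 was at most 15.7 FPKM in the CTX libraries and at least 23.2 FPKM in the other 6, Ccn2 was highest in the HBOT libraries, and Ltbp1 was lowest in CTX replicate 1 (12.1 FPKM) and HBOT replicate 2 (12.3 FPKM).

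The other ligand genes did not follow Tgfb1. Tgfb3 (ENSMUSG00000021253) was at 18.3, 15.5 and 17.4 FPKM in NC, at 20.3, 21.9 and 12.6 FPKM in CTX and at 22.3, 10.5 and 17.7 FPKM in HBOT, so its lowest value was in HBOT replicate 2 and all groups overlapped. Its log2 difference was 0.06 (95% interval -0.57 to 0.69) in CTX against NC and -0.13 (-0.76 to 0.49) in HBOT against CTX, and neither sign was stable when a library was left out. Tgfb2 (ENSMUSG00000039239) was the lowest of the 9 genes in each group, at 2.36, 2.77 and 2.12 FPKM in NC, 3.43, 2.91 and 1.81 FPKM in CTX, and 3.46, 3.37 and 3.05 FPKM in HBOT. The HBOT libraries lay above the NC libraries for Tgfb2, and the CTX libraries spanned both (log2 difference of HBOT against NC 0.33, SE 0.18, adjusted p = 0.489 by limma).

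The makeup of the ligand transcripts differed with Tgfb1. Of the summed FPKM of the 3 genes, Tgfb1 made up 52.9%, 60.6% and 59.9% in the NC libraries and 35.5%, 38.8% and 51.6% in CTX. In HBOT its share was 54.3%, 72.8% and 58.2%. The share in every CTX library was thus below that in every NC and HBOT library, though CTX replicate 3 was close to NC replicate 1. The sum itself was 46.3 ± 2.37 FPKM in NC, 35.7 ± 5.49 FPKM in CTX and 52.4 ± 3.56 FPKM in HBOT (SD, n = 3), without overlap between groups. Tgfb3 was the more abundant ligand transcript in CTX replicates 1 and 2, where Tgfb1 was at 0.645 and 0.718 times its level, while in the other 7 libraries Tgfb1 was at 1.22 to 3.54 times Tgfb3. These shares and sums are a description and were not tested.

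**Figure D2:**
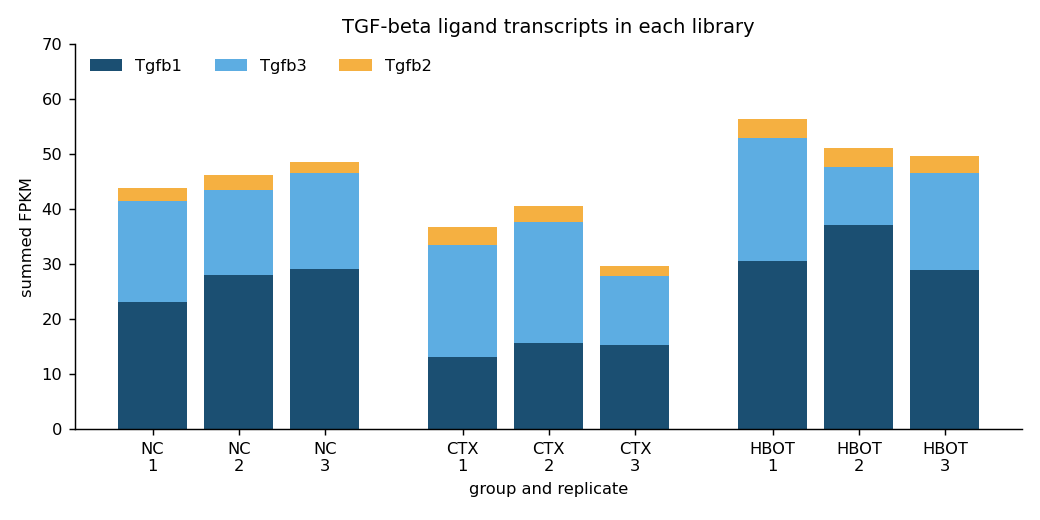
Stacked FPKM of the ligand genes Tgfb1, Tgfb3 and Tgfb2 in each library, by group and replicate. The Tgfb1 part is smallest in the CTX libraries, at 13.1 to 15.7 FPKM, and the whole bar is lowest there, at 29.7 to 40.5 FPKM.

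Ltbp1 (ENSMUSG00000001870), whose protein anchors latent TGF-beta in the matrix, varied more within groups than between them. Its levels were 71, 90.6 and 37.8 FPKM in NC, 12.1, 57.9 and 71.7 FPKM in CTX, and 48.4, 12.3 and 24.9 FPKM in HBOT, a 7.48-fold range over the 9 libraries. The lowest values came from CTX replicate 1 and HBOT replicate 2, the libraries with the most genes away from the rest, and the groups overlapped. The log2 difference of HBOT against NC was -1.3 (95% interval -2.89 to 0.28), or -0.83 without HBOT replicate 2, and that of CTX against NC was -0.73 (-2.31 to 0.85), or 0.044 without CTX replicate 1. By mean level Ltbp1 ranked first of the 9 genes in NC, where its lowest library was above every Ccn2 value, and in CTX, where it overlapped Ccn2. In HBOT it was the third, overlapping both Tgfb1 and Tgfbr1.

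The receptor genes differed little. Tgfbr2 (ENSMUSG00000032440), the type II receptor that binds the ligand, was at 11.3, 11.6 and 11.6 FPKM in NC, 10.4, 10.4 and 8.44 FPKM in CTX, and 11.3, 9.93 and 10.1 FPKM in HBOT. Every CTX library lay below every NC library, by a small margin (log2 difference -0.22, SE 0.12, adjusted p = 0.697 by limma, or -0.14 without CTX replicate 3), and HBOT overlapped both groups. Tgfbr1 (ENSMUSG00000007613), the signalling type I receptor also known as ALK5, was at 22.8, 31.9 and 22.1 FPKM in NC, 20.2, 23.1 and 28.3 FPKM in CTX, and 28.8, 33.2 and 21 FPKM in HBOT, with overlap between all groups. Its 95% intervals ran from -0.56 to 0.38 in CTX against NC and from -0.28 to 0.67 in HBOT against CTX. In each library Tgfbr1 was at 1.91 to 3.35 times the level of Tgfbr2.

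Smad7 (ENSMUSG00000025880), the inhibitory SMAD that recruits ubiquitin ligases to the receptor, was at 6.03, 7.13 and 5.83 FPKM in NC, 12.3, 5.33 and 6.7 FPKM in CTX, and 8.11, 9.82 and 7.17 FPKM in HBOT. The highest value came from CTX replicate 1, and the other CTX libraries were within or below the NC range. The HBOT libraries lay just above the NC libraries (log2 difference 0.35, SE 0.26, adjusted p = 0.579 by limma). In CTX against NC the difference was 0.24 (95% interval -0.34 to 0.82), and -0.067 without CTX replicate 1.

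Ccn2 (ENSMUSG00000019997), a matricellular protein of fibrosis that is also made by granulosa cells, was high in the HBOT libraries. It was at 29.3, 24.2 and 31 FPKM in NC, 35.1, 21.9 and 21.6 FPKM in CTX, and 71.3, 46.4 and 48.6 FPKM in HBOT. All HBOT libraries lay above all NC and CTX libraries, while CTX and NC overlapped. The HBOT mean of 55.4 ± 13.8 FPKM was 2.12 times that of CTX (log2 difference 1.06, SE 0.23, adjusted p = 0.71 by limma) and 1.97 times that of NC (0.93, SE 0.23, adjusted p = 0.267 by limma). HBOT replicate 2 was the lowest of the 3 HBOT libraries, and without it these differences were 1.17 and 1.04. In CTX against NC the difference was -0.13 (95% interval -0.64 to 0.38), and ran from -0.35 without CTX replicate 1 to -0.015 without CTX replicate 3.

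Ccn1 (ENSMUSG00000028195), an immediate early matricellular gene, had another pattern. In the CTX libraries it was at 8.21, 8.16 and 8.42 FPKM, the narrowest spread of any member in that group. In NC it was at 26.1, 13.9 and 11.7 FPKM, above every CTX library. In HBOT it was at 15, 41.6 and 8.19 FPKM, so HBOT replicate 3 was at the CTX level and HBOT replicate 2 held the highest value of all. The log2 difference of CTX against NC was -0.9 (SE 0.5, adjusted p = 0.728 by limma), or -0.57 without NC replicate 1. That of HBOT against CTX was 0.99 (SE 0.5, adjusted p = 0.71 by limma), or 0.39 without HBOT replicate 2 and 1.5 without HBOT replicate 3. Against NC the HBOT difference was 0.096 with that library and -0.51 without it.

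**Figure D3:**
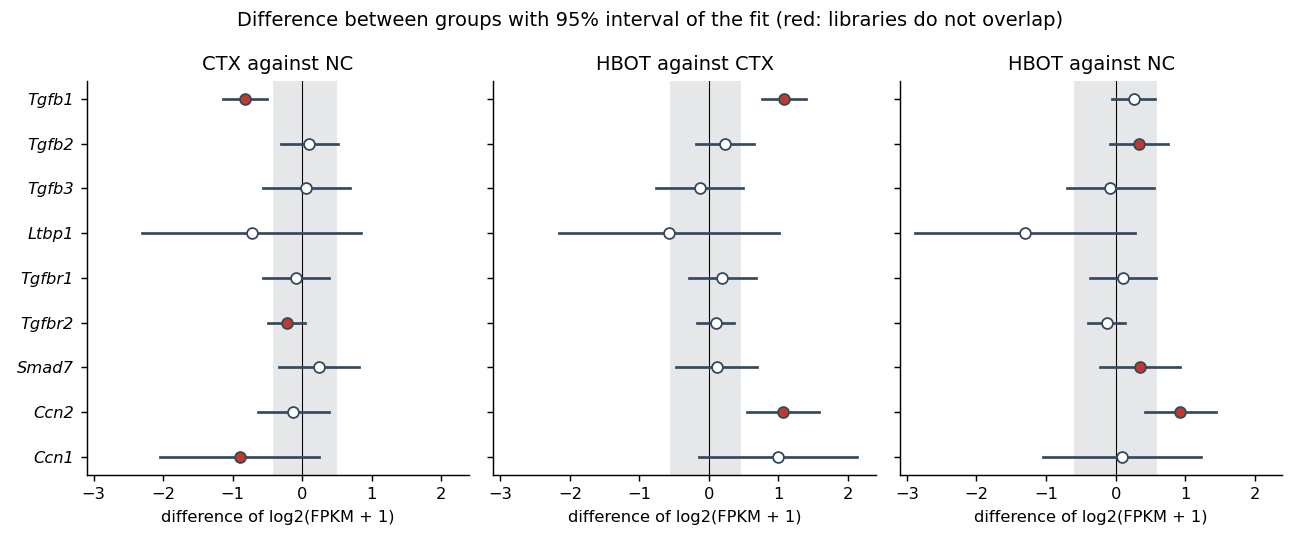
Differences of log2(FPKM + 1) for the 9 genes in the 3 comparisons, with the 95% interval of the limma fit. The grey band spans the 5th to 95th percentile of all tested genes, and red points mark genes whose libraries do not overlap between the groups, such as Tgfb1 at -0.82 and 1.08.

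Counted together, 0 of 9 members passed an adjusted p of 0.05 by limma in each of the 3 comparisons, as did 0% of the 13338 genes. For CTX against NC, 6 members were lower and 3 higher (median -0.13, against 0.046 over all tested genes). The libraries of these groups stood apart for 3 members, all lower in CTX (Tgfb1, Tgfbr2 and Ccn1), and for 21% of all tested genes, 7.8% lower and 13.2% higher. An unadjusted p under 0.05 was found for 1 member, Tgfb1, which was lower, and for 7.98% of genes, 2.74% lower and 5.24% higher. For HBOT against CTX, 7 members were higher (median 0.19, against -0.067 over all genes). Tgfb1 and Ccn2, 2 members, were higher in HBOT without overlap, which held for 3.76% of genes, with a further 6.44% lower and 10.2% in all. The same 2 members had an unadjusted p under 0.05, as had 6.09% of genes, 2.41% higher and 3.67% lower. For HBOT against NC, 6 members were higher (median 0.1, against -0.015 over all genes). The HBOT libraries lay above the NC libraries for Tgfb2, Smad7 and Ccn2, 3 members, and for 10.9% of genes, and below them for 0 members and 9.6% of genes, 20.5% in all. Of the members only Ccn2 had an unadjusted p under 0.05 there, as had 11.9% of genes, 6.22% higher and 5.65% lower. These counts are a description of members chosen with earlier results known.

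Tgfb1 was the only one of the 9 members with all CTX libraries below both other groups, a pattern held by 1.36% of all tested genes. The directions of the members were the same with TPM, median-of-ratios and quantile scaling, in all of which 6 members were lower in CTX against NC and 7 higher in HBOT against CTX. With an estimated weight for each library, HBOT replicate 2 received 0.0998, and Tgfb1 passed in CTX against NC (-0.74, adjusted p = 0.0269 by limma) and in HBOT against CTX (0.95, adjusted p = 0.0462), and Ccn2 in HBOT against NC (1.13, adjusted p = 0.0343).

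Levels of cell type markers were set beside Tgfb1. Platelets carry much TGF-beta 1 protein, and 6 platelet and megakaryocyte genes summed to 4.58 to 7.05 FPKM in NC, 3.88 to 5.81 FPKM in CTX and 4.46 to 5.72 FPKM in HBOT, with 4 of the 6 under 1 FPKM everywhere. Macrophage markers summed to more in CTX (92.6 to 128 FPKM) and HBOT (95.1 to 140 FPKM) than in NC (75.4 to 84.5 FPKM). Of these markers, C1qa and C1qb were higher in all CTX and HBOT libraries than in all NC libraries. Adgre1 and Csf1r were so in CTX but overlapped NC in HBOT, and Cd68 and Mrc1 overlapped NC in both groups. Stromal fibroblast markers summed to 514 to 682 FPKM in NC, 390 to 525 FPKM in CTX and 396 to 651 FPKM in HBOT, and smooth muscle and pericyte markers to 294 to 380, 307 to 370 and 349 to 490 FPKM. Luteal markers summed to 2320 to 2910 FPKM in NC and 391 to 781 FPKM in CTX, while in HBOT they ran from 373 FPKM to 3070 FPKM in replicate 3. Most of the sum in NC and in HBOT replicate 3 was Akr1c18, at 2130 to 2510 and 2850 FPKM. Akr1c18 and Ptgfr were lower in all CTX than in all NC libraries, while Lhcgr, Prlr and Hsd17b7 overlapped between these groups. The part of these cell types in the differences of the members was not tested.

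Among the genes most like Tgfb1 over the 9 libraries was Loxl2, a lysyl oxidase-like enzyme that crosslinks collagen (Pearson r = 0.929 of log2 values, a description over libraries that share their group and depth). Loxl2 averaged 32.3 FPKM in NC, 19.1 FPKM in CTX and 33.1 FPKM in HBOT, and its r was 0.925 without HBOT replicate 2. Angptl4, a secreted inhibitor of lipoprotein lipase (r = 0.914), and Cdkn1a, a cell cycle inhibitor (r = 0.913), followed. Over the 8 libraries without HBOT replicate 2 the 3 most similar genes were others: Mindy2 (r = 0.974), Rabgap1 (0.95) and Megf10 (0.949). Megf10, an engulfment receptor, averaged 4.42 FPKM in NC, 0.415 FPKM in CTX and 3.99 FPKM in HBOT.

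Ccn1 and Ccn2 had different neighbours. The genes most like Ccn1 were the immediate early transcription factors Egr1 (r = 0.986) and Fos (r = 0.977) and the antiproliferative gene Btg2 (r = 0.969), and Egr1 and Fos stayed first without HBOT replicate 2 (0.974 and 0.956). Egr1 was at 70.6, 26.4 and 19.5 FPKM in NC, 12.5, 10.5 and 7.47 FPKM in CTX, and 25.4, 128 and 11.5 FPKM in HBOT. Its highest libraries, HBOT replicate 2 and NC replicate 1, were also the highest for Ccn1. Ccn2 had an r of 0.323 with Egr1 and of 0.303 with Ccn1, and genes near it were Wdr45b (0.984) and Asb4 (0.95). Without HBOT replicate 2 they were Rcan1, a calcineurin regulator (0.984), Wdr45b (0.982) and the matrix protein gene Mfap4 (0.979). For Ltbp1, added after its values were seen, the most similar gene was Zdhhc21 (r = 0.979, or 0.985 without HBOT replicate 2). The glucocorticoid-responsive gene Fkbp5 came after it (0.972), and without that library also after Sorbs2 (0.965 against 0.977). Fkbp5 was at 83.2 FPKM in CTX replicate 1 and 70 FPKM in HBOT replicate 2, against 125 to 232 FPKM in the other 7.

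**Figure D4:**
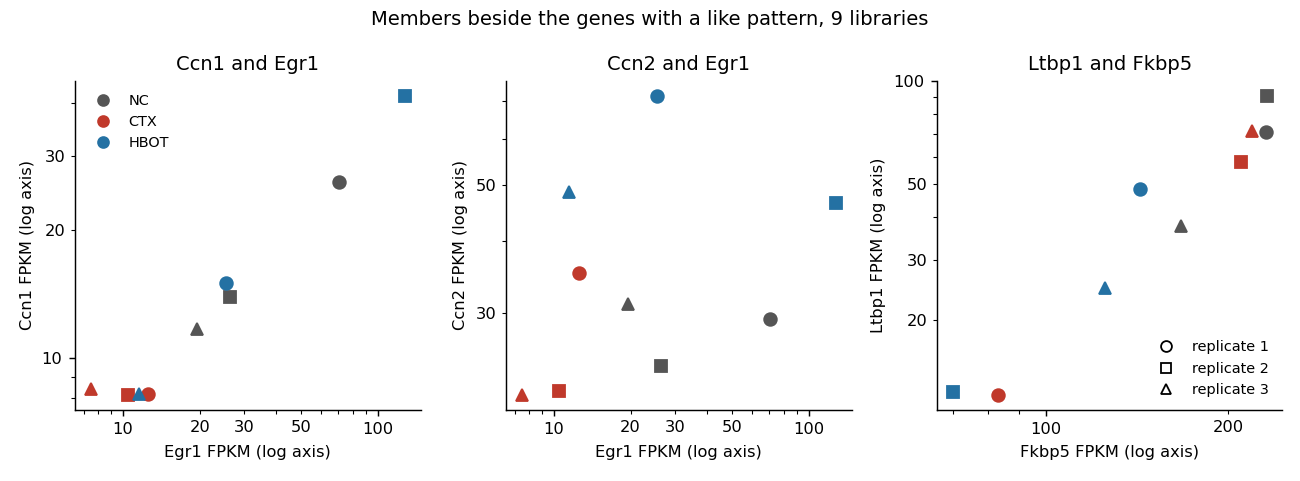
Ccn1 and Ccn2 against Egr1, and Ltbp1 against Fkbp5, in FPKM on log axes, with 1 symbol per library. Ccn1 follows Egr1 from about 8 FPKM up to 41.6 FPKM in HBOT replicate 2, the 3 HBOT libraries have the highest Ccn2, and CTX replicate 1 and HBOT replicate 2 lie at the low end of Ltbp1 and Fkbp5.

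Genes listed for the storage and activation of the latent ligand were lower in CTX than in NC in most cases. Of 22 listed, 20 were tested and 0 passed in either comparison. In CTX against NC 14 were lower and 6 higher (median -0.18, or -0.052 without CTX replicate 3), and 6 of the 20 were lower without overlap. Over all tested genes 40.5% were lower (49.4% with median-of-ratios scaling), 7.8% without overlap, with a median of 0.046. Bgn, a proteoglycan that binds TGF-beta, was at 125 ± 26.3 FPKM in CTX against 213 ± 25.9 FPKM in NC (log2 difference -0.77, SE 0.23, adjusted p = 0.424 by limma). Mmp14, a membrane-bound protease that can release the ligand, was at 43 ± 6.31 against 63.6 ± 10.3 FPKM (-0.55, SE 0.19). Between HBOT and CTX, 16 of 20 were higher in HBOT (median 0.25, or 0.16 without CTX replicate 3), 5 without overlap. Over all genes 38.4% were higher (50.2% with median-of-ratios scaling), 3.76% without overlap, with a median of -0.067. Plat, the tissue plasminogen activator, was at 47.4 ± 33.5 FPKM in HBOT against 15.5 ± 3.42 FPKM (1.36, SE 0.4), and the integrin subunit Itgb3 at 14.3 ± 2.13 against 10.3 ± 1.07 FPKM (0.43, SE 0.13). The related binding proteins Ltbp3, at 104 to 114 FPKM in the group means, and Ltbp2, at 4.47 to 4.63 FPKM, differed by at most 0.13 log2 units. Ltbp4, of the same family, was at 38.4 ± 5.75 FPKM in NC, 45.7 ± 13 FPKM in CTX and 60.2 ± 9.99 FPKM in HBOT, with all HBOT libraries above all NC libraries (0.63, SE 0.21, adjusted p = 0.343 by limma). Itgb6 and Itgb8, subunits of the integrins best known for freeing TGF-beta, were under the filter, with group means of at most 0.536 FPKM.

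Further receptors, co-receptors and SMADs had medians close to 0. All 19 were tested and 0 passed, with 9 higher and 10 lower in CTX against NC (median -0.025), or 6 higher and 13 lower without CTX replicate 1 (median -0.066), and a median of 0.032 without NC replicate 3. Over all tested genes 59.5% were higher in CTX against NC. With median-of-ratios scaling it was 50.6%, and 8 of 19 in the list. HBOT exceeded CTX for 12 of 19, and for 38.4% of all tested genes. With median-of-ratios scaling it did so for 14 of 19 and for 50.2%. The list median of HBOT against CTX was 0.095. That median ran from 0.012 without CTX replicate 2, and 0.034 without HBOT replicate 2, to 0.17 with median-of-ratios scaling. Smad2, a SMAD phosphorylated by TGFBR1, was at 12.9 ± 3.21 FPKM in CTX against 18.2 ± 1.62 FPKM in NC (log2 difference -0.49, SE 0.18, adjusted p = 0.537 by limma). Smad3, its partner in the pathway, was at 23 ± 1.19 against 20 ± 1.34 FPKM (0.2, SE 0.25). The co-receptor Tgfbr3, or betaglycan, was at 20.5 ± 4.46 against 18.1 ± 4.74 FPKM, and the common mediator Smad4 at 27.1 ± 1.53 against 26.7 ± 2.41 FPKM. The activin receptor gene Acvr2b was lower in all CTX than in all NC libraries, at 1.31 ± 0.0956 against 1.71 ± 0.161 FPKM (-0.23, SE 0.14). For HBOT against CTX the smallest p-values belonged to the activin receptor gene Acvr1b (0.33, SE 0.15) and to Smad2 (0.28, SE 0.18).

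Genes listed as negative regulators were likewise mixed. The list also holds the deubiquitinases Usp15 and Usp4, which can promote the signal, so its counts are not of inhibitors alone. In CTX against NC these genes were among the lower, by -0.16 and -0.0075, and in HBOT against CTX among the higher, by 0.25 and 0.0065. Of 14, all tested, 8 were higher in CTX against NC (median 0.03), but 5 of 14 with median-of-ratios scaling, so that direction depended on the scaling. Over all tested genes 59.5% were higher, or 50.6% with that scaling. Leaving out 1 library moved the list median between 0.0041 (CTX replicate 2) and 0.073 (CTX replicate 3). Tgif2, a SMAD corepressor, was at 15.9 ± 3.81 FPKM in CTX against 11.3 ± 0.865 FPKM in NC (log2 difference 0.43, SE 0.22), and the inhibitory Smad6 at 4.39 ± 0.61 against 3.44 ± 0.108 FPKM (0.27, SE 0.14). Compared with CTX, HBOT had 10 of 14 higher (median 0.071, or 0.022 without CTX replicate 3 and 0.11 without HBOT replicate 3) and 0 passed. Over all tested genes 38.4% were higher, or 50.2% with median-of-ratios scaling, where the list kept 10 of 14. Pmepa1, a target of the pathway that traps SMAD proteins, was at 17.9 ± 0.445 FPKM in HBOT, 11.3 ± 2.08 FPKM in CTX and 13.5 ± 2.35 FPKM in NC (0.64 in HBOT against CTX, SE 0.16, adjusted p = 0.71 by limma). Ldlrad4, of the same protein family, was at 4.43 ± 0.666 against 2.8 ± 0.575 FPKM (0.52, SE 0.16). For both genes all HBOT libraries lay above all libraries of the other groups.

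Known target genes of TGF-beta were mostly low in CTX, like Tgfb1. Of 20 listed, 19 were tested, and 16 were lower in CTX against NC, where 40.5% of all tested genes were lower (49.4% with median-of-ratios scaling, the list keeping its count). The list median was -0.49 against 0.046 over all genes, and 8 of the 19 were lower without overlap, as were 7.8% of all genes. Cdkn2b, a cell cycle inhibitor induced by SMAD3, was at 3.57 ± 0.922 FPKM in CTX against 38.9 ± 9.89 FPKM in NC (log2 difference -3.11, SE 0.4, adjusted p = 0.169 by limma), and Timp1, an inhibitor of matrix proteases, at 47.6 ± 21 against 151 ± 66.8 FPKM (-1.65, SE 0.36). Acta2, Snai2 and Pdgfb were the 3 higher genes, by 0.23, 0.22 and 0.15. HBOT exceeded CTX for 18 of 19 (median 0.64, against -0.067 over all genes), 7 without overlap, where this held for 38.4% of all genes (50.2% under median-of-ratios scaling), and for 3.76% without overlap. Examples were Timp1 at 186 ± 25.7 FPKM (2.03, SE 0.36) and Loxl2 at 33.1 ± 5.37 against 19.1 ± 3.29 FPKM (0.76, SE 0.16). Without HBOT replicate 2, 17 of 19 were higher, with a median of 0.46. Against NC, HBOT had 13 of 19 higher (median 0.19), and 8 of 19 (median -0.061) without that library. Cdkn2b, Cdkn1a, Junb, Fn1, Timp1 and Loxl2, 6 of the 19, had all CTX libraries below both other groups, as had 1.36% of all tested genes. In both comparisons 0 of the 19 passed. In CTX against NC, Cdkn2b passed in a fit of those groups alone (adjusted p = 0.00628 by limma), with library weights (0.0182) and without HBOT replicate 3 (0.00344), and Bhlhe40, a transcriptional repressor, in the fit of those groups alone (0.0476). The values of Cdkn2b, Cdkn1a, Timp1 and Loxl2 were known when the list was written, so its counts and medians are partly set by that choice.

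**Figure D5:**
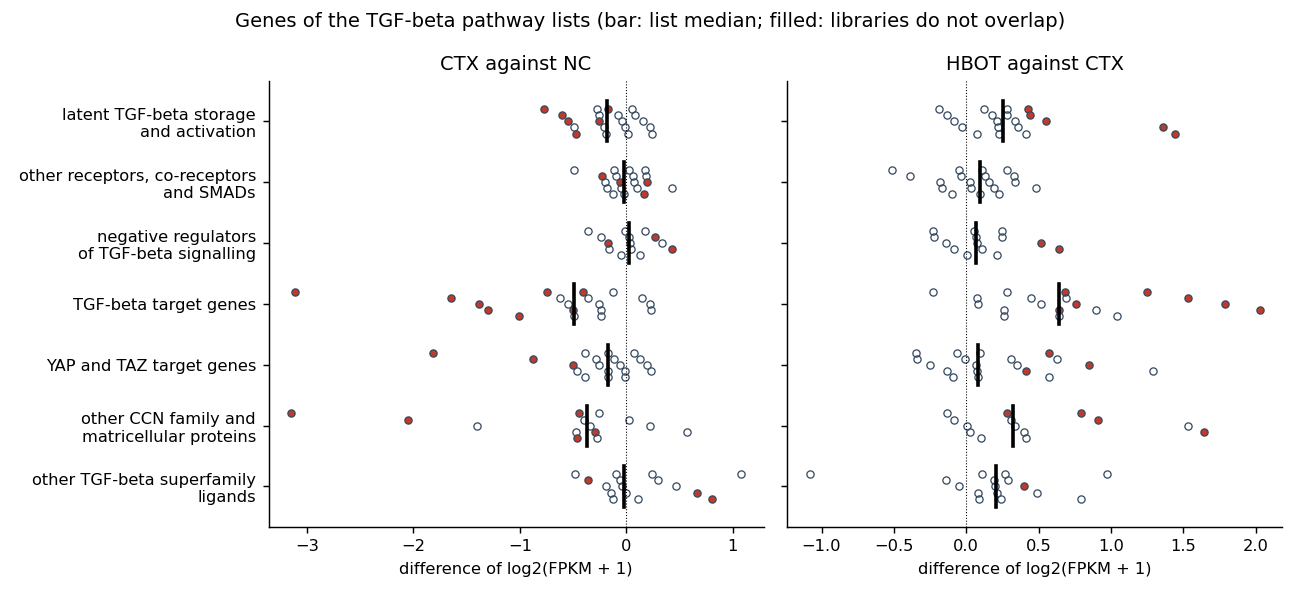
Differences of log2(FPKM + 1) for each tested gene of 7 lists of the pathway, with the list median as a bar and filled points where the libraries of the groups do not overlap. The median of TGF-beta target genes is -0.49 in CTX against NC and 0.64 in HBOT against CTX. That list was written with the values of Cdkn2b, Cdkn1a, Timp1 and Loxl2 known.

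Target genes of YAP and TAZ, which share Ccn1 and Ccn2 with the TGF-beta pathway, were lower in CTX in most cases. Of 21 listed, 19 were tested and 0 passed. In CTX against NC 15 were lower (median -0.17, or -0.061 without CTX replicate 3), but only 3 without overlap. Over all tested genes 40.5% were lower (49.4% with median-of-ratios scaling), 7.8% without overlap. HBOT exceeded CTX for 12 (median 0.083, against -0.067 over all genes), 3 without overlap. This held for 38.4% of all genes (50.2% with median-of-ratios scaling), and for 3.76% without overlap. The list median of HBOT against CTX ran from -0.058 without CTX replicate 3 to 0.22 without CTX replicate 1, and was 0.16 with median-of-ratios scaling. Gadd45a, also a stress-induced growth arrest gene, was at 32.8 ± 7.42 FPKM in CTX, 117 ± 15.5 FPKM in NC and 61.9 ± 25.3 FPKM in HBOT (log2 difference of CTX against NC -1.82, SE 0.27, adjusted p = 0.169 by limma). It passed in a fit of those groups alone (adjusted p = 0.0205), with library weights (0.0253) and without HBOT replicate 3 (0.0153). Nt5e, an ectonucleotidase, was at 1.12 ± 0.421 FPKM in CTX and 3.01 ± 1.5 FPKM in NC (-0.88, SE 0.3). Myof, a membrane repair protein, was at 14.8 ± 1.18 FPKM in HBOT against 9.71 ± 1.79 FPKM in CTX (0.57, SE 0.14), and Gadd45a was higher in HBOT than in CTX by 0.85. Amotl2 and Lats2, feedback regulators of the Hippo pathway, were lower in HBOT than in CTX by 0.25 and 0.061 on average, with SE 0.31 and 0.15. Ankrd1, a target often read beside Ccn1 and Ccn2, was under the filter and not tested. It was listed at 0 in all CTX libraries, at 0.0607 to 0.221 FPKM in NC and at 0 to 0.0996 FPKM in HBOT, values too low to compare.

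Other matricellular genes were low in CTX in most cases. Of 16 listed, 14 were tested and 0 passed. Of the 14, 11 were lower in CTX against NC (median -0.37), 5 of them without overlap, where 40.5% of all genes were lower, 7.8% without overlap (median 0.046). HBOT exceeded CTX for 12 (median 0.33, or 0.14 without HBOT replicate 1), 4 without overlap, where 38.4% of all genes were higher, 3.76% without overlap (median -0.067). Tnc, the matrix glycoprotein tenascin C, was at 80.3 ± 3.36 FPKM in NC, 19.5 ± 7.76 FPKM in CTX and 63.1 ± 22.7 FPKM in HBOT (log2 differences -2.05 and 1.64, SE 0.32, adjusted p = 0.169 and 0.667 by limma). In CTX against NC it passed in a fit of those groups alone (adjusted p = 0.0476), with library weights (0.0133) and without HBOT replicate 2 and CTX replicate 1 (0.0407). Spp1, or osteopontin, was at 6.43 ± 3.8 FPKM in CTX against 70.6 ± 48.4 FPKM in NC (-3.15, SE 0.62). Of the CCN family, Ccn4 was at 3.25 ± 0.481 FPKM in NC, 2.15 ± 0.541 FPKM in CTX and 5.06 ± 1.95 FPKM in HBOT (0.91 in HBOT against CTX, SE 0.25). Ccn5 was at 48.8 ± 9.06 FPKM in NC, 21.7 ± 17.4 FPKM in CTX and 23.5 ± 16.2 FPKM in HBOT, so the HBOT mean was close to that of CTX and below NC. Ccn3 and Ccn6 stayed under 1 FPKM.

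Other ligands of the superfamily and their inhibitors differed among themselves. Of 18 listed, 16 were tested and 0 passed, with 8 higher and 8 lower in CTX against NC (median -0.02, or 0.17 without CTX replicate 2 and 0.24 with a filter of 5 FPKM). Over all tested genes 59.5% were higher in CTX against NC. With median-of-ratios scaling it was 50.6%, and 7 of 16 in the list. HBOT exceeded CTX for 13 (median 0.2, or 0.087 without HBOT replicate 2 and 0.33 without CTX replicate 1). This held for 38.4% of all tested genes, or 50.2% with median-of-ratios scaling, where the list had 14 of 16 higher. The oocyte ligands Gdf9 (67.8 ± 14.3 against 38.4 ± 8.74 FPKM, log2 difference 0.81, SE 0.21) and Bmp15 (17.8 ± 4.47 against 10.6 ± 1.24 FPKM, 0.67, SE 0.19) were higher in all CTX libraries than in all NC libraries, the opposite of Tgfb1. Oocyte markers, which include Gdf9 and Bmp15 themselves, summed to 102 to 143 FPKM in NC and 157 to 243 FPKM in CTX. The sum is thus not separate from these genes, and the part of oocytes in their difference was not tested. For HBOT against CTX the smallest p-values belonged to Bmp6, at 10.5 ± 2.07 against 7.2 ± 1.32 FPKM (0.49, SE 0.17, adjusted p = 0.71 by limma), and to Fstl3, an activin-binding inhibitor, at 4.17 ± 0.88 against 2.89 ± 0.0549 FPKM (0.4, SE 0.19). Fstl3 was at 4.07 ± 1.12 FPKM in NC, and was the gene of this list with all CTX libraries below both other groups, like Tgfb1. This pattern was held by 1.36% of all tested genes.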

How the data were processed

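Polyadenylated RNA from mouse ovary was sequenced as paired ends in 9 libraries, per the labels' protocols and the series' design text. Gene levels are FPKM as deposited by the authors, in 1 table whose 9 columns carry the sample names, leaving 0 columns unmatched. The submitters' processing notes name fastp 0.23.4 and GRCm39. Aligner, counter, strand setting and annotation: not given in the sources used here. Low values did not fall on steps that would give read counts, so depth is unknown and no count model was used.

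Values were taken as log2(FPKM + 1), which understates differences of low genes. Genes at 1 FPKM or more in at least 3 libraries, 13338, were kept. The 3 group means were estimated with limma 3.58.1 (R 4.3.3) in 1 fit of the 9 libraries, with a mean trend in the variance and 6 residual degrees of freedom. The Benjamini-Hochberg adjustment ran across every tested gene, and an adjusted p under 0.05 was a call. Not overlapping means that every library of a group lies above, or below, every library of the other. On simulated data for CTX against NC with 13338 genes, 100 genes were changed by a log2 difference of 1 and 100 by 2. Of these 61% and 89% were recovered, with 6 false calls. The simulated noise was independent between genes and had the same spread in every library, so these shares may not hold for the real libraries.

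The members, gene lists, tests and motifs were chosen with earlier results of these data known. Named by rule were the members, the 2 genes of each list with the smallest p in CTX against NC and in HBOT against CTX, and the 3 genes most correlated with Tgfb1, Ccn1 and Ccn2, leaving out predicted genes. Some genes that the rule names are not reported here. Other list genes were named after their values were seen. Thbs1, Pmepa1 and Skil are each in 2 lists of the pathway. Gdf9, Bmp15, Amh, Inha, Dcn, Col1a1, Acta2 and Tagln are each in a list of the pathway and in a list of cell type markers. Alternatives were another pseudocount, filters, scalings, a fit of 2 groups, a replicate block, library weights and libraries left out. Figures were drawn with matplotlib 3.10.9.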

Additional observations from a re-analysis of the deposited data

How the results depend on the processing

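Depth is unknown, 3 libraries a group limit the precision, and an exact permutation test of 3 against 3 libraries cannot go below p = 0.1. Over 19 alternatives in each comparison the directions of Tgfb1, Tgfbr2, Ccn2 and Ccn1 in CTX against NC, and of Tgfb1, Tgfb2, Ltbp1, Tgfbr2, Ccn2 and Ccn1 in HBOT against CTX, stayed as reported. Tgfb1 ran from -0.92 to -0.74 (adjusted p 0.0269 to 0.605) and from 0.89 to 1.15 (0.0462 to 0.603), and Ccn2 from 0.87 to 1.4 in HBOT against CTX. The filter of 5 FPKM removed Tgfb2. Of 510 alternative values of single members 30 reversed and 3 newly passed, and of 399 list medians 24 moved by more than the spread between libraries. Of 399 counts of list genes called, all 0 as reported, 12 became 1 or 2.

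Genes called, 0 in each comparison, became 1 in HBOT against CTX and 1 in HBOT against NC with no filter, 31 in CTX against NC in a fit of those groups alone, and, with library weights, 123 in CTX against NC, 5 in HBOT against CTX and 181 in HBOT against NC, where 1 member passed in each. With HBOT replicate 2 and CTX replicate 1 both left out they were 16 in CTX against NC and 2 in HBOT against CTX. Leaving out 1 library gave 0 to 9, 0 to 1 and 0 to 3 genes in the same order and 0 members. The cause was not tested.

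With replicate number as a block 0 genes and 0 members passed, and Tgfb1 stood at -0.82 and 1.08. Libraries of the same number correlated at -0.29 to 0.16 in their deviations from the group means, so the numbers were not taken as pairs. In HBOT against CTX and HBOT against NC each HBOT library correlated best with its own number, and in CTX against NC 1 of 3 CTX libraries did.

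Single members reversed in these settings. Leaving out 1 library gave, for CTX against NC, ranges of -0.039 to 0.29 for Tgfb2, -0.083 to 0.29 for Tgfb3, -1.19 to 0.044 for Ltbp1, -0.21 to 0.072 for Tgfbr1 and -0.067 to 0.47 for Smad7. The ranges for HBOT against CTX were -0.37 to 0.15 for Tgfb3 and -0.12 to 0.42 for Smad7, and those for HBOT against NC were -0.3 to 0.21 for Tgfb3, -0.035 to 0.28 for Tgfbr1 and -0.51 to 0.6 for Ccn1. Without HBOT replicate 2 and CTX replicate 1 the values for CTX against NC were Tgfb2 -0.039, Tgfb3 -0.03, Ltbp1 0.044, Tgfbr1 0.019 and Smad7 -0.067, those for HBOT against CTX were Tgfb3 0.24 and Tgfbr1 -0.054, and those for HBOT against NC were Tgfb3 0.21, Tgfbr1 -0.035 and Ccn1 -0.51. Library weights gave Tgfb3 0.15 in HBOT against CTX, and Tgfb3 0.22 and Ccn1 -0.5 in HBOT against NC. The cause was not tested.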
